A study of Homo sapiens with 15 samples.

Results

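The nuclear oxidative phosphorylation (OXPHOS) subunits are the genes of the cell nucleus that encode parts of respiratory complexes I, III and IV and of the ATP synthase, complex V. They were chosen by gene symbol alone, from the NDUF, UQCR, CYC1, COX and ATP5 families, which gave 77 genes of 60605 in the table: 36 of complex I, 9 of complex III, 17 of complex IV and 15 of complex V. Of these, 76 had at least 1 FPKM (counts scaled to the exon length of the gene and to the library total) in at least 1 library, and COX4I2 did not. The filter kept 21206 genes in all.

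Bulk RNA sequencing covered 1 cardiac differentiation of H1, an established human embryonic stem cell line of wild-type genotype, in 15 libraries with 1 library per condition and day. All cells were brought to mesendoderm with the WNT activator CHIR99021 on day 0 and then insulin, and the libraries of days 0, 1 and 2 are shared by the 3 arms. From day 2, NP-ctrl cells stayed in their wells (NP, not passaged) and differentiated without a further inducer. NP-IWP2 cells were likewise left undisturbed, and IWP2, which blocks the release of WNT ligands, was in their medium between day 2 and day 4. Passaged cells were dissociated with EDTA and replated on day 2 with the ROCK inhibitor Y27632, and were given no IWP2. Each arm was sampled on days 3, 5, 7 and 10. The comparisons ask how expression of the respiratory chain followed the route that the cells took. With 1 library per arm and day, a pair of libraries has no replicate check and no p-value, every culture descends from 1 cell line, and days of an arm are the only repeats. All comparisons with NP-ctrl use the same NP-ctrl libraries. Where 3 values of 1 day stand together, they are in the order NP-ctrl, NP-IWP2, passaged.

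Oxidative phosphorylation makes ATP in the inner mitochondrial membrane. Complexes I, III and IV pass electrons from NADH to oxygen and pump protons, and complex V lets the protons back to drive ATP synthesis. Complexes I, III, IV and V are mosaics, with most subunits encoded in the nucleus and a core set encoded by mitochondrial DNA. Heart muscle is rich in mitochondria, and pluripotent stem cells are known for a more glycolytic metabolism.

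Library totals ranged from 13254723 to 20250115 counts (median 15269132), of which the 77 genes contributed 67342 to 193661. The labels were checked against marker genes. POU5F1, a defining factor of pluripotency, was at 625.3 FPKM on day 0 and at most at 0.16 on days 7 and 10 in every arm. The 6 pluripotency markers together summed to 440.1 to 1425 FPKM on days 0 to 2. On days 7 and 10 they summed to 19.3 to 28.1 (NP-ctrl), 19.5 to 33.7 (NP-IWP2) and 52.1 to 54.8 FPKM (passaged). NANOG was at 0 in the late NP-IWP2 and passaged libraries. The 9 cardiomyocyte markers summed to at most 2.38 FPKM on days 0 to 2, and on days 7 and 10 to 584.3 to 702.4 (NP-ctrl), 1777 to 2611 (NP-IWP2) and 3818 to 4296 FPKM (passaged). The 6 endoderm and liver markers summed there to 645.3 to 4007, 307.2 to 1178 and 13.5 to 17.9 FPKM, and the 6 mesenchyme markers to 3988 to 4057, 1091 to 1160 and 96.2 to 412.6 FPKM, in the same order of arms. None of the cardiomyocyte, endoderm and liver, and mesenchyme lists had a gene at 0 in both late libraries of an arm. The 5 epicardial markers summed to 31.6 to 69.2, 33.2 to 76.5 and 0.36 to 1.38 FPKM, with TCF21 at 0 in the passaged libraries. Marker levels of several cell types thus differed between the arms, and in bulk samples fewer cells of a type and less RNA per cell cannot be told apart. The part of cell composition in the results that follow was not tested.

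Some libraries stood apart. In the passaged day 3 library, genes of the mitochondrial genome made up 1.53% of counts. The passaged day 10 library had 10.3%, and the rest had 3.71% to 6.14%. The passaged day 10 library was not left out by itself. In the NP-IWP2 day 10 library, differences from day 7 followed the GC content of the transcript (Spearman's rho across 21164 genes -0.387, which are not independent replicates). Counts from the fits are given also without the passaged day 3 or the NP-IWP2 day 10 library. Day 10 values of NP-IWP2 are best read beside those of day 7.

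The subunit genes as a group were high in stem cells, lowest in the middle of the time course, and high again late in the passaged arm. On day 0 they took 0.874% of the counts of the library, on day 1 0.830% and on day 2 0.701%. On day 5 the shares were 0.518%, 0.583% and 0.619%. The NP-ctrl share stayed there, with 0.508% on day 7 and 0.511% on day 10. NP-IWP2 libraries reached 0.898% on day 7 and 0.844% on day 10, and passaged libraries 1.04% and 1.27%. The passaged day 10 value, with a Wilson 95% interval of 1.267% to 1.278%, was the highest of the 15 libraries. These intervals and all others here cover counting error only, since PCR reads without molecular identifiers are not independent molecules.

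**Figure D1:**
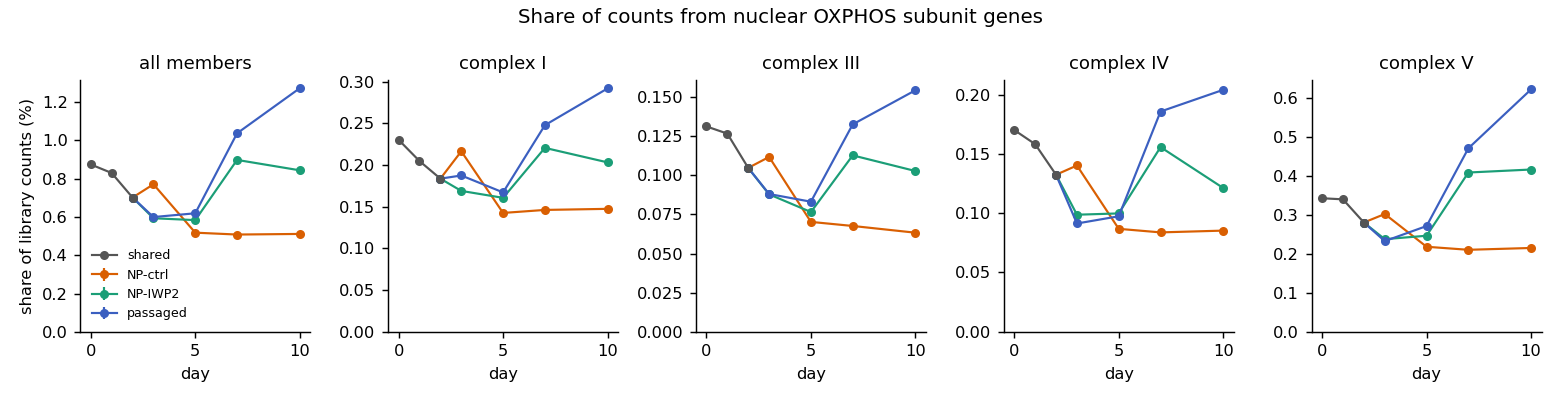
Share of library counts (%) taken by the nuclear OXPHOS subunit genes, all together and by complex, against day of differentiation. Points are single libraries, bars (mostly smaller than the points) are Wilson 95% intervals for counting error, and colours are the arms. From 0.874% on day 0 the summed share ended at 0.511% (NP-ctrl), 0.844% (NP-IWP2) and 1.27% (passaged).

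Each complex was lower on day 5 than on day 0 in NP-ctrl, and higher on day 10 than on day 3 in passaged cells. In passaged cells complex V took 0.233% of counts on day 3 and 0.623% on day 10, much of it from ATP5F1A and ATP5F1B, with 34600 and 27232 counts on day 10. Complex I went from 0.187% on day 3 to 0.292% on day 10, complex III from 0.0880% to 0.154%, and complex IV from 0.0913% to 0.204%. On day 0 the shares of complexes I, III, IV and V were 0.230%, 0.131%, 0.170% and 0.343%. In NP-ctrl cells on day 10 they were 0.147% for complex I, 0.0633% for complex III, 0.0853% for complex IV and 0.215% for complex V.

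ATP5F1B, the catalytic beta subunit of the ATP synthase, had the highest mean level of all 77 genes. It lies at chr12:56638175-56645984 on the minus strand (hg38). The level of ATP5F1B was 489.9 FPKM on day 0, 481.3 on day 1 and 392.4 on day 2. In NP-ctrl cells it was 334.4, 219.8, 223.1 and 231.9 FPKM on days 3, 5, 7 and 10. In NP-IWP2 cells the values on these days were 285.3, 252.9, 530.6 and 542.5, and in passaged cells 268.0, 330.8, 608.6 and 799.7 FPKM. On day 3 the level was highest in NP-ctrl. By day 5 it was highest in passaged cells, with a passaged to NP-ctrl ratio of 1.505 (exact 95% interval 1.462 to 1.549). On days 7 and 10 NP-IWP2 and passaged cells lay above the NP-ctrl values of those days. The next highest mean levels were NDUFS5, an accessory subunit of complex I, and COX8A, a small subunit of complex IV. NDUFS5 went from 316.1 FPKM on day 0 to 117.0, 145.5 and 204.8 FPKM on day 10, and COX8A from 311.0 to 101.5, 139.7 and 208.2 FPKM. Unlike ATP5F1B, neither regained its day 0 level in any arm.

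Between day 0 and day 2 most subunit genes drifted down together. The median difference was -0.32 on the log2(FPKM + 1) scale, which understates changes of low genes, and 63 of 76 were lower. At least 1.5-fold lower were 13 of 76, against 12.4% of all genes tested, so this count is near the background. By day 5 the decrease from day 0 was wider. In NP-ctrl cells 44 of 76 were at least 1.5-fold lower (19.3% of all genes), in NP-IWP2 cells 31 of 76 (18.4%) and in passaged cells 34 of 76 (18.1%). The medians were -0.67, -0.47 and -0.47, while the median of all genes was between 0.06 and 0.08. UQCRH, the hinge subunit of complex III, went from 161.6 to 50.1 FPKM in NP-ctrl cells, a ratio of 0.310 (exact 95% interval 0.289 to 0.332). COX8A had a ratio of 0.298 (0.274 to 0.324) in the same libraries. ATP5MC1, which encodes the proton-carrying c subunit of complex V, was at 32.1 FPKM on day 0 and 6.42 in NP-ctrl cells on day 5. ATP5F1E, the epsilon subunit of complex V, was among the few that were higher, with 8.51 on day 0 and 11.5 FPKM on day 5.

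**Figure D2:**
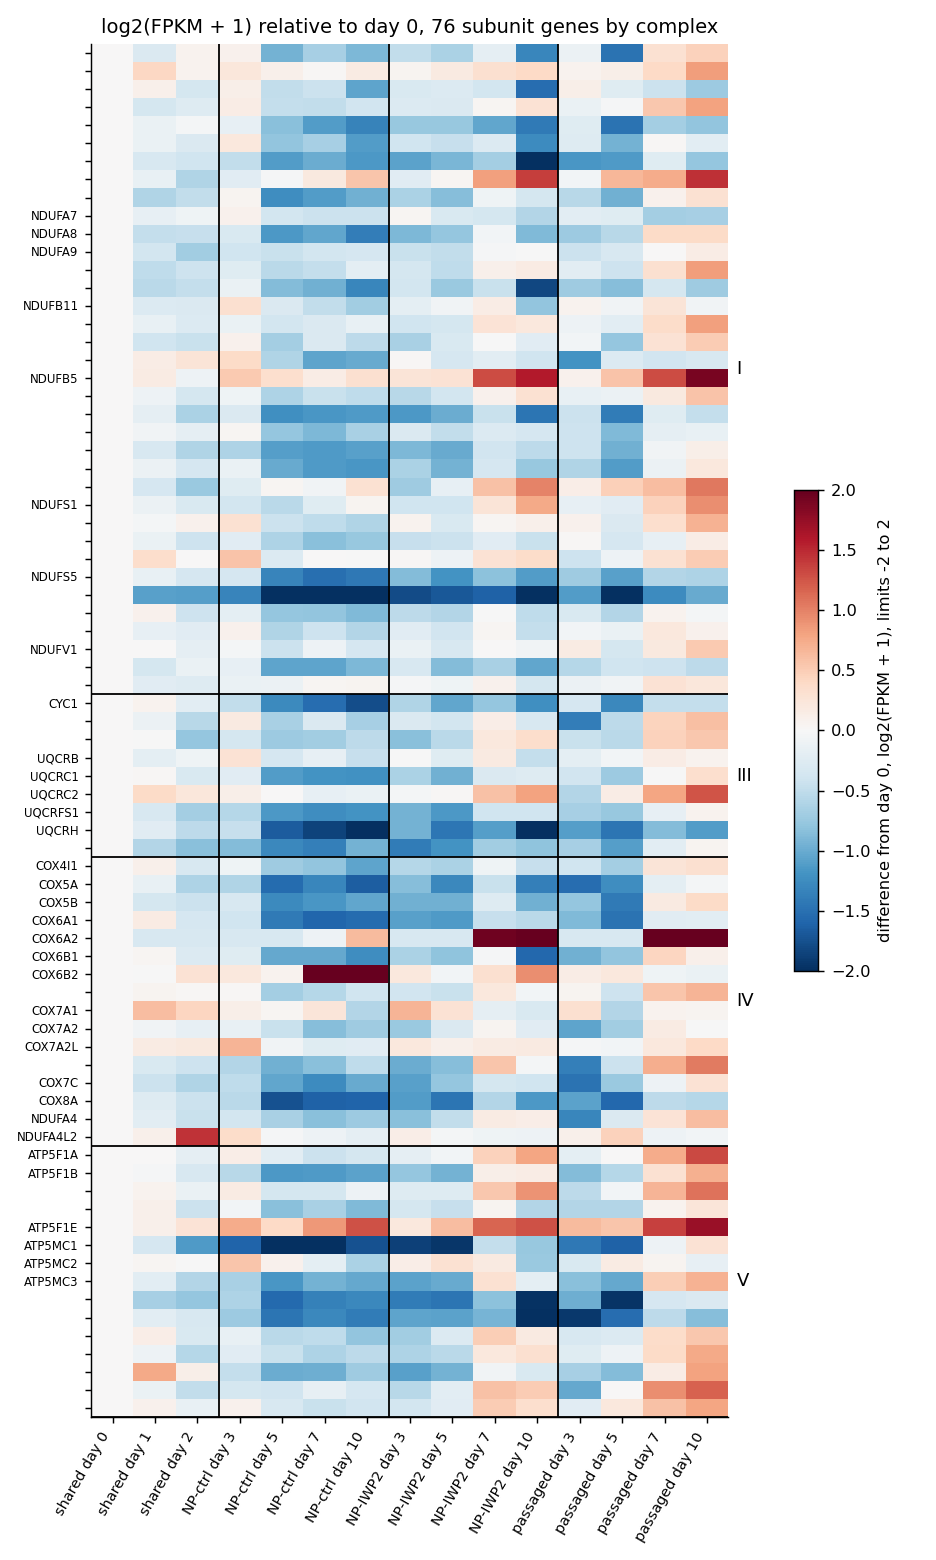
Difference from day 0 of log2(FPKM + 1) for the 76 genes above the filter, by complex (rows) in each library (columns); colour runs from -2 (blue) to 2 (red) and values beyond are drawn at the limits, and only rows of genes named by the rule are labelled. Most rows are blue on day 5 in all arms, and on day 10 the passaged column is above day 0 in 51 of 76 rows against 25 in NP-IWP2 and 9 in NP-ctrl.

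The decrease was not in step at day 3. In NP-ctrl cells on day 3 the genes were close to day 2 (median difference 0.15). NP-IWP2 lay below NP-ctrl by a median of 0.41, with 10 of 76 at least 1.5-fold lower (3.47% of all genes) and 0 at least 1.5-fold higher. Passaged lay below NP-ctrl by a median of 0.27, with 19 of 76 at least 1.5-fold lower (10.0% of all genes). On the TPM scale, which gives the levels of every library the same sum, the median of all genes shifted by 0.28 between these libraries and the passaged difference was -0.04, so its direction in relation to other genes depends on the scaling. The lowest ratios were those of NDUFB4 and UQCR10. NDUFB4 of complex I was at 66.8, 52.4 and 21.8 FPKM on day 3, a passaged to NP-ctrl ratio of 0.327 (0.297 to 0.359). UQCR10 of complex III was at 69.0, 49.6 and 22.7 FPKM, a ratio of 0.329 (0.289 to 0.374). ATP5F1C, the gamma subunit of complex V, was at 71.6, 53.5 and 44.2 FPKM, a ratio of 0.618 (0.579 to 0.659). The large core protein gene UQCRC1 was at 76.8, 57.8 and 69.5 FPKM. Within complex III passaged cells were below NP-IWP2 beyond counting error in UQCR10, UQCRC2, UQCRB and UQCRH. They were above it in UQCRC1, CYC1, UQCRFS1, UQCR11 and UQCRQ. NDUFB4 and UQCR10 were chosen after their values were seen. In the same passaged library the 13 mitochondrially encoded subunits were lower than in NP-ctrl by a median of 1.58 (12 of 13 lower), and their FPKM sum was 4.80 times that of the nuclear genes, where the other 14 libraries had 11.7 to 18.2 times.

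Day 5 was the point at which the 3 arms were nearest. Passaged minus NP-ctrl had a median of 0.17 and NP-IWP2 minus NP-ctrl one of 0.18. Passaged minus NP-IWP2 had a median of 0.03, with 25 genes above and 18 below a ratio of 1 beyond counting error.

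From day 7 the arms separated. On day 7 the passaged library was at least 1.5-fold above NP-ctrl for 59 of 76 genes (10.0% of all genes tested) and NP-IWP2 for 45 of 76 (7.75%). Median differences were 0.91 and 0.68, where all genes had medians of -0.07 and -0.01. On day 10 passaged cells were at least 1.5-fold above NP-ctrl for 61 of 76 genes (12.2% of all genes), with a median of 1.04 and 74 of 76 higher. The median of all genes was then -0.09, and with TPM the subunit genes had 0.81 where all genes had -0.38. In exact counting intervals, 72 of 76 ratios of passaged to NP-ctrl lay above 1, 1 lay below and 3 included 1. Such intervals were made for the subunit genes alone, so no share of all genes stands beside this or any other count of ratios.

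NP-IWP2 held an intermediate place on day 10. It was at least 1.5-fold above NP-ctrl for 27 of 76 genes (10.4% of all genes) with a median of 0.37, and at least 1.5-fold below for 4. Passaged was at least 1.5-fold above NP-IWP2 for 39 of 76 (8.76%), with a median of 0.59, whereas on day 7 the median was 0.21. Within the passaged arm 55 of 76 were at least 1.5-fold higher on day 10 than on day 5 (14.4% of all genes) and 0 were that much lower. Within NP-IWP2, 19 of 76 were at least 1.5-fold lower on day 10 than on day 7 (9.73%). The NP-IWP2 difference between days 7 and 10 varied with transcript composition. In the NP-IWP2 day 10 library the 38 genes with GC content at or above their median of 48.6% differed from day 7 by a median of -0.43, and the 38 below it by -0.06. Across 73 subunit genes with a mean of at least 1 FPKM the difference had a Spearman's rho of -0.452 with GC content and 0.426 with transcript length. The part of this in the day 10 values of NP-IWP2 was not tested. For passaged minus NP-ctrl on day 10, which does not use that library, rho was -0.145 and 0.041, and the medians were 0.94 and 1.18 for GC-rich and GC-poor genes.

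**Figure D3:**
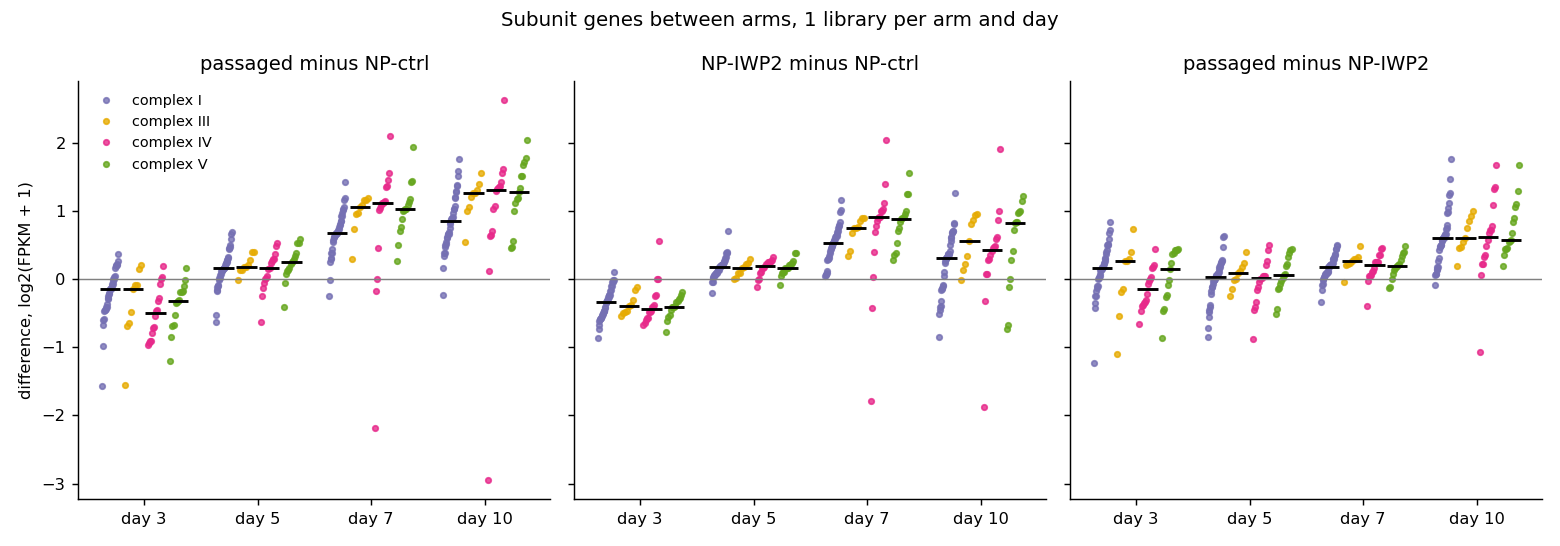
Difference between arms in log2(FPKM + 1) for each of the 76 genes (points, coloured by complex) on days 3, 5, 7 and 10, with the median of each complex as a black bar. Passaged minus NP-ctrl moves from a median over all complexes of -0.27 on day 3 to 1.04 on day 10, and the lowest point on days 7 and 10 is COX6B2.

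By complex, the passaged minus NP-ctrl medians on day 10 were 0.85 for complex I, 1.26 for complex III, 1.31 for complex IV and 1.27 for complex V, and on day 7 they were 0.68, 1.06, 1.11 and 1.02. Complex I, the NADH dehydrogenase, was thus lowest on both days, with 27 of 36 genes at least 1.5-fold higher on day 10. The largest difference in complex I was NDUFA8, an accessory subunit, at 23.1, 33.0 and 80.9 FPKM on day 10, with a passaged to NP-ctrl ratio of 3.50 (3.05 to 4.04). NDUFB5, another accessory subunit, was at 10.6, 26.8 and 33.6 FPKM, a ratio of 3.18 (2.94 to 3.43). NDUFB11, with the second highest mean level in this complex, was at 59.1, 54.9 and 91.5 FPKM. The core subunits, which carry the flavin and iron-sulphur centres, differed less: NDUFS1 was at 10.96, 18.5 and 21.0 FPKM (ratio 1.92, 1.82 to 2.03) and NDUFV1 at 19.1, 23.0 and 35.5 FPKM (1.86, 1.74 to 1.99). NDUFA7 was the 1 complex I gene below NP-ctrl, with 38 counts in passaged and 43 in NP-ctrl cells and a ratio of 0.782 that counting error does not separate from 1 (0.492 to 1.24). NDUFA9 had the lowest mean level, 1.90 FPKM, and went from 1.76 to 2.83.

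Complex III passes electrons from ubiquinol to cytochrome c. Its core proteins UQCRC1 and UQCRC2 had the largest differences on day 10. UQCRC1 was at 38.3, 75.3 and 114.4 FPKM, with a passaged to NP-ctrl ratio of 2.99 (2.83 to 3.16), and UQCRC2 at 32.7, 63.5 and 88.1 FPKM, with a ratio of 2.69 (2.56 to 2.83). CYC1, cytochrome c1, was at 22.7, 33.8 and 57.8 FPKM (2.55, 2.32 to 2.80), and UQCRFS1, the Rieske iron-sulphur protein, at 22.8, 40.4 and 56.0 FPKM (2.46, 2.28 to 2.65). In these 4 genes the order of the arms was the same. UQCRB, the lowest of the complex, was at 6.97, 6.92 and 10.6 FPKM, with NP-IWP2 and NP-ctrl nearly level.

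In complex IV, cytochrome c oxidase, COX5A was at 39.2, 48.2 and 122.1 FPKM on day 10, a passaged to NP-ctrl ratio of 3.12 (2.87 to 3.40). COX5B was at 40.5, 42.7 and 110.1 FPKM (2.72, 2.51 to 2.95). COX4I1, the regulatory subunit found in most tissues, was at 26.5, 40.2 and 69.7 FPKM, and COX7C at 58.1, 89.9 and 144.2 FPKM. NDUFA4, a complex IV subunit despite its name, was at 32.2, 59.8 and 84.0 FPKM. For COX5A and COX5B the NP-IWP2 to NP-ctrl ratios on day 10 were 1.23 (1.12 to 1.36) and 1.05 (0.958 to 1.16), and on day 7 they were 1.83 (1.69 to 1.98) and 1.90 (1.74 to 2.08).

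Complex V had its largest difference in ATP5MC1, at 8.83, 18.5 and 39.6 FPKM on day 10 and a passaged to NP-ctrl ratio of 4.48 (3.97 to 5.08). ATP5F1B had a ratio of 3.45 (3.36 to 3.54) and ATP5F1A, the alpha subunit beside it in the catalytic head, one of 3.24 (3.17 to 3.31) with 64.4, 143.0 and 208.5 FPKM. ATP5F1E and ATP5MC2 had the smallest ratio of the complex, 1.39 for each, with ATP5F1E at 21.9, 22.0 and 30.5 FPKM. The c ring is encoded by 3 genes with the same mature protein, and their balance differed between libraries. ATP5MC1 made 23.6% of the summed FPKM of the 3 on day 0, 8.05% in NP-ctrl cells on day 5 and, on day 10, 13.4%, 19.2% and 22.5%. ATP5MC2 made 33.1% on day 0, 59.8% in NP-ctrl on day 5 and 22.7% in passaged cells on day 10, when ATP5MC3 made 54.7%. ATP5MC2 itself was at 45.0 FPKM on day 0 and 40.0 in passaged cells on day 10, while ATP5MC3 was at 58.8 and 96.2 FPKM and ATP5MC1 at 32.1 and 39.6 FPKM.

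Several complex IV subunits come as tissue isoforms, which were read separately. COX6A2 is the heart and skeletal muscle form of subunit 6A and COX6A1 the form of other tissues. COX6A2 lies at chr16:31427731-31428360 on the minus strand (hg38). It had 2 counts on day 0 and 0 in each of the 8 libraries of days 1 to 5, which allows up to 3 counts in each. On day 7 it had 1, 29 and 28 counts, and on day 10 6, 47 and 79 counts, or 0.94, 6.27 and 10.98 FPKM. NP-ctrl was lowest on both days. The passaged to NP-ctrl ratio on day 10 was 11.7 (5.12 to 32.7) and the passaged to NP-IWP2 ratio 1.75 (1.204 to 2.567). Against COX6A1, per length, COX6A2 stood at 2.51%, 8.30% and 11.5% on day 10, so COX6A1 was the main form in every library. The intervals of the last 2 overlapped (6.07% to 11.1% and 9.07% to 14.4%). COX6A1 itself was at 37.5, 75.6 and 95.4 FPKM. Exons of COX6A2 overlap a long non-coding RNA on the other strand, and whether counting used the strand was not stated.

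COX7A1, the heart and muscle form of subunit 7A, had too few counts to compare the arms. It had at most 14 counts in any library, and on day 10 0, 2 and 5 counts, against 746, 1244 and 1398 counts of COX7A2. COX7A2L, a related protein known from supercomplexes of complexes III and IV, was at 9.95, 13.6 and 15.9 FPKM on day 10. COX4I2, the form of subunit 4 known from lung and low oxygen, had at most 5 counts in any library.

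COX6B2, a form of subunit 6B known from testis, ran the other way. COX6B2 lies at chr19:55349306-55354719 on the minus strand (hg38). It had at most 26 counts in any library up to day 5, then 185, 22 and 2 counts on day 7, and 336, 64 and 0 on day 10. In FPKM the day 10 values were 6.71, 1.09 and 0. With the passaged library set to 3 counts, COX6B2 was at least 126.6-fold lower there than in NP-ctrl. Per length it stood at 18.0% of COX6B1 in NP-ctrl on day 10 (15.7% to 20.5%) and 3.68% in NP-IWP2 (2.80% to 4.76%). It was the only 1 of the 76 genes at least 1.5-fold lower in passaged than in NP-ctrl cells on days 7 and 10, while COX6B1 was at 37.3, 29.5 and 95.9 FPKM. COX6B2 passed the filter only through late NP-ctrl and NP-IWP2 libraries in which it is high, so its direction is not independent of the filter. Exons of COX6B2 overlap another protein-coding gene on the same strand, so reads of the 2 may be split. The order of COX6B2 levels over the arms was that of the endoderm, liver and mesenchyme marker sums given above, and their part in it was not tested.

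NDUFA4L2, a paralog of NDUFA4 known as a target of hypoxia-inducible factor (HIF), was highest on day 2. It had 6 counts on day 0, 11 on day 1, 119 on day 2 and at most 24 in any later library, and a ratio of day 2 to day 0 of 16.6 (7.42 to 46.2). NDUFA4L2 passed the filter only through the day 2 library, at 2.09 FPKM, so its peak there is not independent of the filter. Of 15 HIF targets tested, 11 were at least 1.5-fold higher and 1 at least 1.5-fold lower on day 2 than on day 0, where 15.4% of all genes were that much higher. LDHA, which makes lactate, was at 95.9 FPKM on day 0, 312.5 on day 2 and 55.6 in NP-ctrl cells on day 3, and BNIP3 was at 16.6, 130.4 and 25.1 FPKM, while ADM was at 20.2 and 2.34 FPKM on days 0 and 2. LDHA, BNIP3 and ADM were chosen after their values were seen.

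**Figure D4:**
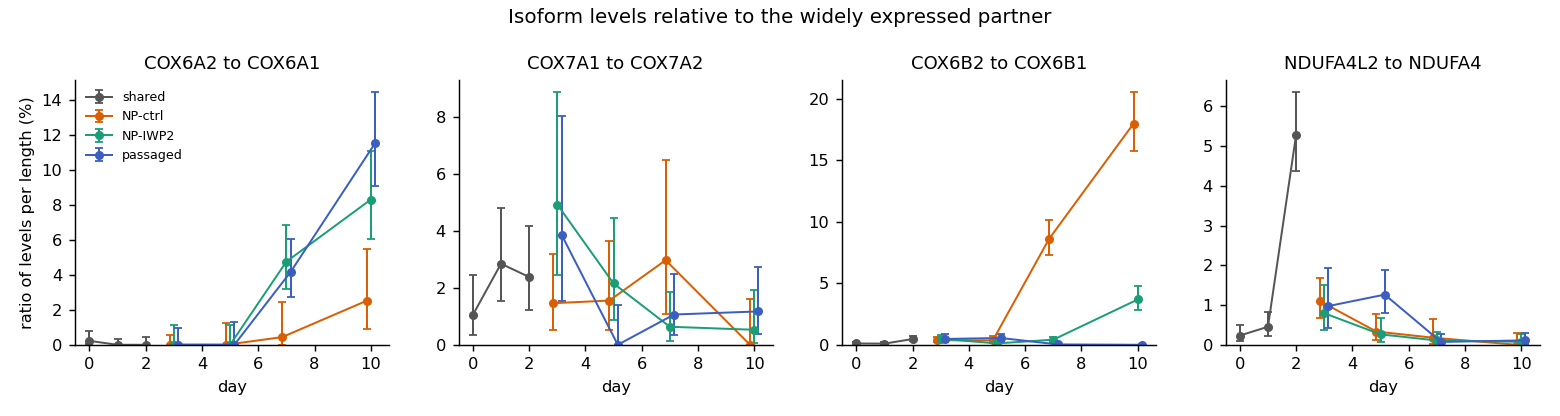
Level of an isoform or paralog as a percentage of its widely expressed partner, per length, against day of differentiation. Points are single libraries, with exact 95% intervals for counting error, and the vertical scales differ between panels. COX6A2 reaches 11.5% of COX6A1 in passaged cells on day 10, COX6B2 reaches 18.0% of COX6B1 in NP-ctrl cells, NDUFA4L2 peaks at 5.29% of NDUFA4 on day 2, and COX7A1 stands at 0%, 0.527% and 1.17% of COX7A2 on day 10, with overlapping intervals.

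The promoters of these pairs are shown because on day 10 COX6A2 was highest in passaged cells and COX6B2 in NP-ctrl, while COX6A1 and COX6B1 were highest in passaged cells like most subunit genes. Each is the 250 bases before the annotated start, 5′ to 3′ on the strand of the gene, from RefSeq on build GRCh38.p14: COX6A2 at chr16:31428361-31428610 (minus strand), COX6A1 at chr12:120437863-120438112 (plus), COX6B2 at chr19:55354720-55354969 (minus) and COX6B1 at chr19:35648073-35648322 (plus). Capitals mark matches on either strand to 8 motifs: the TATA box, searched as TATAAA, the E-box of muscle factors, searched as CAGCTG, the SP1 box of GC-rich promoters, searched as GGGCGG, the site of ETS factors, searched as CCGGAAG, the site of oestrogen-related receptors (ERR), searched as AAGGTCA, the YY1 site, searched as AAGATGGCG, and the MEF2 and NRF1 sites. Overlapping matches share capitals.
COX6A2: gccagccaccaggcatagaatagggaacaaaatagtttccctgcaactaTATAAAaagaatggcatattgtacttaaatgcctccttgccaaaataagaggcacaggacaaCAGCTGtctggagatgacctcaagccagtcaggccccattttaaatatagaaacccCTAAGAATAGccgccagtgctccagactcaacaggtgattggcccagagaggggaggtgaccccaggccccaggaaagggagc
COX6A1: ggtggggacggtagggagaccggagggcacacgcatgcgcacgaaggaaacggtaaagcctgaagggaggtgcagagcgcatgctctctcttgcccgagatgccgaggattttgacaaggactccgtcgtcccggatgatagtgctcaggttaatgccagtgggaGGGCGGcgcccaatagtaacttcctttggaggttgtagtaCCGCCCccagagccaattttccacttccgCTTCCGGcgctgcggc
COX6B2: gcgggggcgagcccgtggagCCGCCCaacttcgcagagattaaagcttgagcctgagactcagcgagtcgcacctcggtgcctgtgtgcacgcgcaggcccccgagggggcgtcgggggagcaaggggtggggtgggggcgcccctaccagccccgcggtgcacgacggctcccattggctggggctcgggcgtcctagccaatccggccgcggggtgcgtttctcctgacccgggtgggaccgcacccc
COX6B1: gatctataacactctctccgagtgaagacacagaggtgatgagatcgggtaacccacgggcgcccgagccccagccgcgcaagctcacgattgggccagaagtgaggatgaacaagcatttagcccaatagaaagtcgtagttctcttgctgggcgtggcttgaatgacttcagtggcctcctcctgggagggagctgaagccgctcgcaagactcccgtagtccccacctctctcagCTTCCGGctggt
The COX6A2 window has a GC content of 49.2% and holds 1 match each to the TATA box, the E-box and the loose MEF2 string. COX6A1 holds 2 SP1 and 1 ETS match, COX6B1 (57.6% GC) 1 ETS match, and COX6B2 (72.8% GC) 1 SP1 match.

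Over the subunit genes, 61 of 77 had an entry, with 74 windows. The ETS motif was in 21.6% of them against 8.52% of all 35116 windows, the NRF1 motif in 14.9% against 5.07%, the ERR motif in 9.46% against 3.44%, the YY1 motif in 2.70% against 0.652% and the SP1 motif in 59.5% against 42.6%. The MEF2 motif was in 2.70% against 2.36%, the E-box in 14.9% against 14.0% and the TATA box in 9.46% against 10.7%. These are counts of letters in a fixed window, without a test, and the motifs were picked with the expression values known. Of the subunit genes, only COX6A2 and 1 of 2 windows of COX7A2 matched the MEF2 string as searched, which leaves its middle bases open. Genes without an entry included ATP5F1B, ATP5F1D, ATP5MC3, ATP5MF, COX4I2, COX6C, COX7A1, CYC1, NDUFA4, NDUFA4L2, NDUFB5, NDUFB9, NDUFC2, NDUFS5 and UQCRB.

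The arms were then tested over days, with edgeR's quasi-likelihood test and Benjamini-Hochberg adjustment over all 21206 genes. With arm and day as terms, passaged differed from NP-ctrl in 4.40% of all genes, was higher in 1.64%, and differed in 1 of 76 subunit genes (1.32%). The 1 was COX6A2, higher in passaged cells by 3.80 on the log2 scale (SE 0.78, adjusted p = 0.0423). The call of COX6A2 was lost without the NP-IWP2 day 10 library (estimate 3.87) and without day 5, 7 or 10 (3.47 to 4.16). It was also lost by limma on log2(FPKM + 1) (1.18) and with only the passaged and NP-ctrl arms in the fit. The call rests on few counts. COX6A2 passed the filter only through the late NP-IWP2 and passaged libraries in which it is high, so its test is not independent of the filter. Without the filter the estimate was 3.83. Of the 76 genes 74 had a positive estimate, with a median of 0.54, and 28 had an unadjusted p under 0.05, 27 of them higher, where 4062 of all 21206 genes did, 1978 of them higher. Without the passaged day 3 library 9 were called, all higher, where 809 of all 21206 genes were called higher and 1177 lower. Next in order were NDUFA5 (0.69, SE 0.20, adjusted p = 0.0757) and ATP5MC1 (1.25, SE 0.37, adjusted p = 0.0814). Without day 3, the day on which passaged cells lay below NP-ctrl, 39 were called, all higher. Of all 21206 genes, 1064 were then called higher and 1309 lower.

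NP-IWP2 differed from NP-ctrl in 0.0189% of all genes and in 0 subunit genes by edgeR, 0 by DESeq2 and 0 by limma, with 1 at an unadjusted p under 0.05. Passaged differed from NP-IWP2 in 1.33% of all genes and in 0 subunit genes by each of the 3 tools, with 1 at an unadjusted p under 0.05. These tests do not show that the arms were alike, since an effect had to be large to be called in this design.

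Change with time was tested within each arm. A linear slope over days 3 to 10 was called in 15.9% of all genes tested in the passaged arm, and a rising one in 7.57%. Of the subunit genes 29 of 76 rose (38.2%) and 0 fell, with 49 at an unadjusted p under 0.05, all rising, against 6500 of all 21206 genes, 3092 of them rising. They were 11 of 36 in complex I, 3 of 9 in complex III, 5 of 16 in complex IV and 10 of 15 in complex V. Without the passaged day 3 library, in which the mitochondrial share was low, 0 were called by edgeR, with 41 at an unadjusted p under 0.05, and 473 of all genes were called. The median slope was then 0.21 log2 units per day, against 0.17 with it. Without day 3 in every arm 10 were called, with a median of 0.21, and 1619 of all genes. UQCRC2 rose by 0.30 log2 units per day (SE 0.04, adjusted p = 0.00286), NDUFA5 by 0.26 (SE 0.04, adjusted p = 0.00344), NDUFB5 by 0.32 (SE 0.05, adjusted p = 0.00376) and ATP5F1A by 0.27 (SE 0.04, adjusted p = 0.00584). ATP5F1B rose by 0.28 per day (SE 0.06, adjusted p = 0.0163) while COX6A2, which passed the filter only through late libraries, had a slope of 1.16 (SE 0.33, adjusted p = 0.0407). In raw levels UQCRC2 went through 23.8, 40.1, 63.4 and 88.1 FPKM on days 3, 5, 7 and 10 of the passaged arm, NDUFB5 through 8.89, 12.8, 21.9 and 33.6, and NDUFA5, an accessory subunit of complex I, through 4.84, 8.59, 9.16 and 15.8 FPKM. From day 5 to day 10 alone, which leaves out the day 3 library, 67 of 76 ratios in the passaged arm lay above 1 beyond counting error and 4 below. No share of all genes was available for this count.

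In the NP-IWP2 arm slopes were called in 11.5% of all genes, and rising ones in 5.14%. Of the subunit genes 9 of 76 rose (11.8%): NDUFA5, NDUFC2, NDUFB5, NDUFS1, ATP5F1C, ATP5PB, NDUFB6, UQCRC2 and ATP5F1A. Without the NP-IWP2 day 10 library 0 were called by edgeR, with 26 at an unadjusted p under 0.05. Of all 21206 genes only 1 rising and 3 falling slopes were then called, with 3463 at an unadjusted p under 0.05. The loss of calls was thus not particular to the subunit genes. Their median slope was 0.16 log2 units per day, against 0.06 with that library. Leaving it out keeps 3 days in the arm. NDUFA5 rose by 0.29 per day (SE 0.04, adjusted p = 0.00531), with 4.17, 5.26, 9.79 and 14.8 FPKM on days 3, 5, 7 and 10.

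In NP-ctrl, slopes were called in 6.20% of all genes and in 1 of 76 subunit genes (1.32%). UQCRH fell by 0.26 log2 units per day (SE 0.06, adjusted p = 0.0409), a call that was lost whichever day was left out (slopes of -0.37 to -0.14), from 117.6 FPKM on day 3 through 50.1 and 44.1 to 31.6 on day 10. In passaged cells UQCRH was at 74.8, 58.2, 87.7 and 74.3 FPKM on these days.

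Differences between slopes were also tested, with edgeR. Passaged against NP-ctrl passed in 0.160% of all genes and in 0 subunit genes, with 58 of 76 at an unadjusted p under 0.05, 57 of them steeper in passaged cells (3307 of all 21206 genes, 1577 of them steeper), and 75 of 76 estimates positive. The lowest adjusted p was 0.0534, for UQCRC2, whose slope was larger in passaged cells by 0.35 log2 units per day (SE 0.06). By DESeq2 28 passed, 27 of them steeper in passaged cells, with 1060 of all genes, and by limma 0. NP-IWP2 against NP-ctrl passed in 0% of all genes and in 0 subunit genes, and passaged against NP-IWP2 in 0.00472% and 0, where DESeq2 and limma also gave 0 subunit genes. At an unadjusted p under 0.05 there were 21 and 8 subunit genes. Of all 21206 genes, 1204 and 1609 were at that level.

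**Figure D5:**
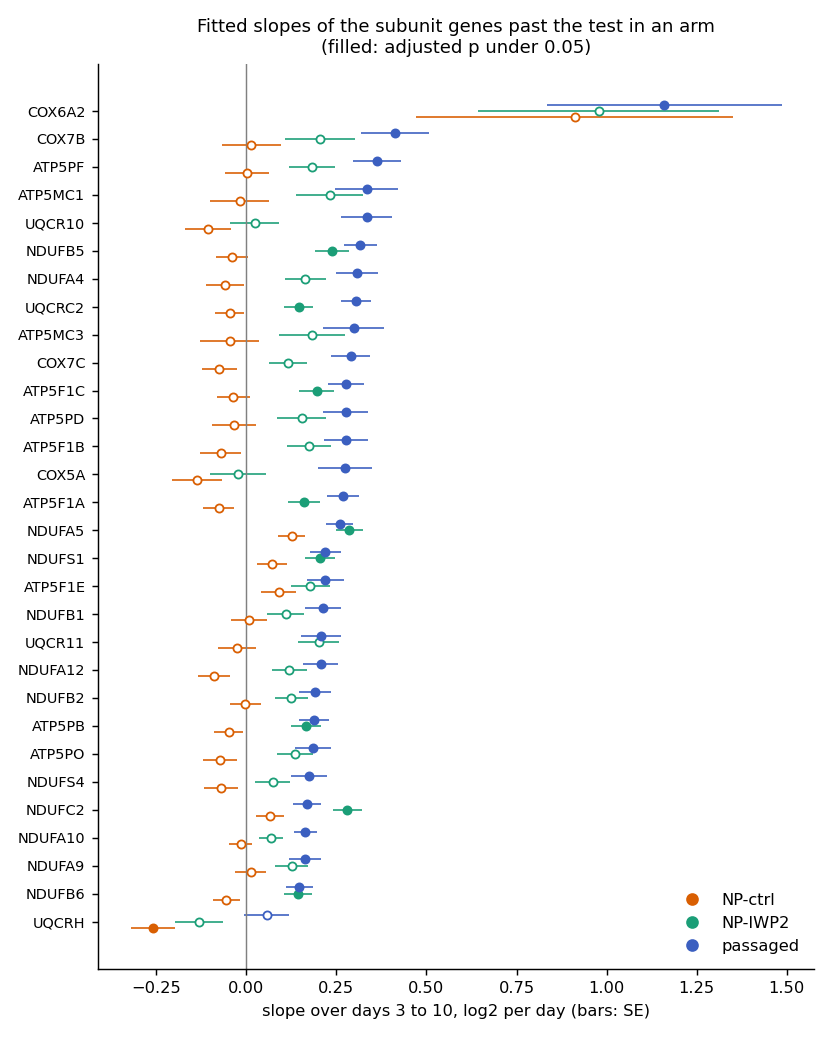
Fitted slopes over days 3 to 10 in log2 units per day (points) with their standard errors (bars) for the 30 subunit genes called in at least 1 arm, by arm. Filled points passed edgeR's test at an adjusted p under 0.05: 29 in passaged cells, 9 in NP-IWP2 cells, and UQCRH alone in NP-ctrl cells, where it fell.

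Promoters of UQCRC2 (chr16:21953111-21953360, plus strand) and ATP5F1C, the gamma subunit that turns inside the ATP synthase (chr10:7787927-7788176, plus strand), are shown as subunit genes that rose in NP-IWP2 and in passaged cells, have 1 annotated start each and differ in their motifs.
UQCRC2: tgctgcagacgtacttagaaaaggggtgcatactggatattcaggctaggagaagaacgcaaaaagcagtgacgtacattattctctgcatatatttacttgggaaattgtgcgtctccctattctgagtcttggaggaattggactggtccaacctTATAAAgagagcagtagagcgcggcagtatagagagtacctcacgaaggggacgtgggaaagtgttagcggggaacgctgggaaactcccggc
ATP5F1C: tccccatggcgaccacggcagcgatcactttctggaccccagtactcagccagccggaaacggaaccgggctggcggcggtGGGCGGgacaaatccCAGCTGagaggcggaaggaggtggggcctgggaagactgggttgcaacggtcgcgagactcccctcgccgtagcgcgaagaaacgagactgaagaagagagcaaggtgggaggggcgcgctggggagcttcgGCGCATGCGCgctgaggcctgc
The ATP5F1C window, with 66.8% GC, held 1 match each to the SP1, E-box and NRF1 motifs. The UQCRC2 window, with 48.4% GC, held only 1 match, to the letters TATAAA. The distance of matches from the start was not considered. ATP5F1C was at 44.2, 61.3, 102.8 and 136.8 FPKM on days 3, 5, 7 and 10 in passaged cells and 71.6, 49.6, 50.1 and 59.3 in NP-ctrl cells.

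Other genes of the pathway were read from lists, where 7.57% of all genes rose in the passaged arm. Complex II, succinate dehydrogenase, is wholly nuclear. Of its 4 subunits SDHD (0.30 log2 units per day, SE 0.05, adjusted p = 0.00787) and SDHA (0.32, SE 0.06, adjusted p = 0.0120) rose in the passaged arm by edgeR. SDHA was at 2.40, 5.37 and 10.4 FPKM on day 10. Of 5 accessory subunits with symbols outside the rule 2 rose in the passaged arm, ATP5MK and ATP5MJ. Assembly factors, which build the complexes but are not part of them, rose there in 5 of 18 for complex I, 1 of 6 for complex III, 3 of 25 for complex IV and 0 of 5 for complex V (edgeR, 3 at an unadjusted p under 0.05). In the passaged to NP-ctrl comparison 0 passed in each of the 4 lists by edgeR, with 5, 1, 5 and 2 at an unadjusted p under 0.05. Without the passaged day 3 library 0 genes of complex II, the accessory list and the assembly lists passed by edgeR, with 2, 3, 5, 1, 5 and 2 at an unadjusted p under 0.05. All 13 mitochondrially encoded subunits rose in the passaged arm, and 0 passed without its day 3 library (edgeR, 11 at an unadjusted p under 0.05), in which their level was low. MT-CO1 was at 3531, 12209, 13612 and 22902 FPKM there on days 3, 5, 7 and 10, and at 10004, 11476, 9220 and 8083 in NP-ctrl.

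Between passaged and NP-ctrl, 1.64% of all genes were higher and 4.40% differed. Of 17 genes for electron carriers, CYCS, cytochrome c, was higher in passaged than in NP-ctrl cells (1.17, SE 0.26, adjusted p = 0.0291 by edgeR), at 17.9, 33.3 and 48.3 FPKM on day 10. Of 11 genes for transport of adenine nucleotides and phosphate, 2 were higher: CKMT2, the mitochondrial creatine kinase of striated muscle (2.21, SE 0.39, adjusted p = 0.0116), and SLC25A4, the muscle form of the ADP and ATP carrier (1.73, SE 0.36, adjusted p = 0.0218). SLC25A4 was at 9.08, 28.7 and 65.0 FPKM on day 10, and CKMT2 at 1.46, 4.88 and 15.2. Of 20 regulators of mitochondrial gene expression 3 were higher: MEF2C, a muscle transcription factor (2.90, SE 0.35, adjusted p = 0.00150), PPARGC1A, the coactivator PGC-1 alpha (2.89, SE 0.45, adjusted p = 0.00626), and ESRRA, an oestrogen-related receptor (0.86, SE 0.20, adjusted p = 0.0365). PPARGC1A was at 0.16 FPKM on day 0 and at 2.47, 13.8 and 20.2 on day 10. Without the NP-IWP2 day 10 library the electron carriers had 0 called by edgeR, with 3 at an unadjusted p under 0.05, the transport genes 2 and the regulators 2. Of 15 HIF targets tested, EGLN3 was higher (1.39, SE 0.28, adjusted p = 0.0217) and P4HA1 lower (-0.84, SE 0.16, adjusted p = 0.0174).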

How the data were processed

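RNA was sequenced from 15 libraries of 1 cardiac differentiation of H1 cells, 1 per condition and day. Per the labels and the submitters' processing notes, the authors trimmed reads with cutadapt 1.9.1, aligned them to hg38 with HISAT2 2.0.1 and made the deposited counts per gene with HTSeq 0.6.1, and the notes also name DESeq2. The authors' FPKM values were also deposited, and FPKM recomputed here from counts, exon length and library total differed from them by at most 0.005. The strandedness of counting was not given in the sources used here. The labels name a library kit made for long reads, while the tools are for short reads, and this was not resolved. Exons of 43 of the 77 genes overlap another gene, and 172 named pseudogenes of 44 of them held 0.2592% of the counts of those genes.

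The subunit genes and all lists were chosen with earlier results of these data known. Genes with at least 1 FPKM in at least 1 library were tested (21206). Levels are FPKM and differences are log2(FPKM + 1). Ratios of counts per library total carry exact 95% intervals and shares Wilson intervals, which cover counting error only. Across days 3 to 10 (12 libraries), counts were tested with edgeR 4.0.16 (R 4.3.3), TMM factors and the quasi-likelihood test, with arm and day as factors or with a slope per arm, and p-values were adjusted by Benjamini-Hochberg over all genes at 0.05. Days are not biological replicates. In the arm test the p-values set a difference against its unevenness over days. In the slope test they set a slope against departures of single days from a straight line within each arm. The fits were checked on simulated data, where only large effects were called in most cases.

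Genes were named by rule: isoform groups, the 2 highest and the lowest mean level and the 2 highest and the lowest day 10 difference of each complex, 8 core subunits, and genes called between arms. NDUFB4, UQCR10, NDUFA5 and genes printed for their slopes were added after their values were seen, as were the direction of each fold count, the motifs, the promoter window and the promoters shown. Alternatives were DESeq2 1.42.0, limma 3.58.1, other scalings, filters and pseudocounts, log2 of day, and leaving out each day. Leaving out the NP-IWP2 day 10 or the passaged day 3 library was chosen after seeing the data.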

Additional observations from a re-analysis of the deposited data

How the results depend on the processing

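Every arm and day is 1 library, so no difference between a pair of libraries has a replicate error, and cell composition cannot be told apart from change within cells. No paired analysis was possible because every group has only replicate 1, so replicate numbers give no block, and day was instead a term of the arm comparison. Depth limits COX6A2, COX6B2, COX7A1, COX4I2 and NDUFA4L2, with counts from 0 to 336.

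Counts of subunit genes called depended on the tool and on single days or libraries. For passaged against NP-ctrl (1 called) the count was 20 without the filter, 5 by DESeq2, 0 by limma, 0 with only both arms compared, 0 without the NP-IWP2 day 10 library, 9 without the passaged day 3 library, and 0 to 39 when each day was left out, 39 without day 3. For NP-IWP2 against NP-ctrl (0 called) it was 2 without the filter and 1 with only both arms compared. For the NP-ctrl slope (1 called) it was 3 without the filter, 7 by DESeq2, 2 by limma, 3 with log2 of day, 2 without the NP-IWP2 day 10 library and 0 whichever day was left out. For the NP-IWP2 slope (9 called) it was 5 without the filter, 16 by DESeq2, 0 without the NP-IWP2 day 10 library and 0 to 3 when each day was left out. For the passaged slope (29 called) it was 0 without the passaged day 3 library and 6 to 13 when each day was left out, all with fewer samples. For the slope difference of passaged and NP-ctrl (0 called) it was 5 without the filter, 28 by DESeq2 and 5 with log2 of day. Numbers of all genes called also moved with the setting. For passaged against NP-ctrl 348 genes were called higher and 585 lower in the main fit. Without the passaged day 3 library these numbers were 809 and 1177, and without day 3 1064 and 1309. Without the NP-IWP2 day 10 library they were 227 and 385. The counts of subunit genes alone do not show a change particular to these genes. The cause of the differences between tools was not tested.

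Median differences moved with the scaling. On the TPM scale they were -0.037 for passaged minus NP-ctrl on day 3, 0.31 for passaged minus NP-IWP2 on day 3, 0.81 for passaged minus NP-ctrl on day 10 and 0.40 for passaged minus NP-IWP2 on day 10. With TMM they were 1.06 on day 7 and 1.22 on day 10 for passaged minus NP-ctrl, and 0.75 for passaged minus NP-IWP2 on day 10. With genes of a mean FPKM of at least 10, passaged minus NP-ctrl on day 10 was 1.18. The sign turned on the TPM scale for passaged day 3 minus day 2 (0.026) and NP-IWP2 day 10 minus day 2 (0.10), and for the latter with a mean FPKM of at least 10 (0.0008).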
